A study of Mus musculus with 2 samples.

Results

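The cell cycle phase genes described here are 51 genes listed by symbol, chosen with earlier results of these data known. They are 23 whose products act in DNA replication (S-phase genes), 23 that act in mitosis and its preparation (mitotic genes), and 5 that act at entry into the cycle from G1 (Ccnd1, Ccnd2, Ccnd3, Cdkn1a and Cdkn1b). All 51 were found among the 32285 genes of the data. Each passed the minimum of 200 UMIs (unique molecular identifiers, counts of distinct RNA molecules) over the nuclei kept, and each had a promoter peak. The RNA and the accessible chromatin of the same nuclei came from mouse embryos that had been pooled at E7.0, while gastrulation is under way. There were 2 samples, nuclear RNA and chromatin accessibility, with 1 library each, and no barcode could be traced to an embryo. The strain entry of the labels is RedMUC298trTg, no further genotype or treatment is named there, and other label entries give small intestine, distal colon and goblet cells. The RNA went against those gut entries: the summed markers of goblet cells and intestinal epithelium held 28.7 CPM (UMI counts scaled to the same total in each group) over all barcodes, against 1675 for epiblast and 5056 for visceral endoderm markers.

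Without replicates there was no test between conditions. Every interval is a 95% interval for counting error alone, and a gene is counted as higher or lower where its level differed at least 1.5-fold. The libraries held 182201512 UMIs and 273131304 peak counts over 15341 barcodes, and 12796 nuclei were kept, with medians of 10471 UMIs and 17350 peak counts. Nuclei were placed in classes by clustering, and a class is called after the marker genes it carried, such as epiblast-like. RNA was read in classes made from accessibility, and accessibility in classes made from RNA with every cell cycle gene left out. The exception is the comparison of nuclei with many and few mitotic or S-phase UMIs, where accessibility was read within the epiblast-like class made from accessibility. The accessibility classes held 2411 epiblast-like, 1448 visceral endoderm-like, 1235 extraembryonic ectoderm-like, 1106 embryonic mesoderm-like, 1077 primitive streak-like and 795 anterior streak, node and definitive endoderm-like nuclei. Smaller classes were extraembryonic mesoderm-like (341), haemato-endothelial progenitor-like (320), ectoplacental cone and giant cell-like (179) and parietal endoderm-like (135). The remaining 3749 nuclei stayed unnamed. RNA of other cell types was found in many nuclei, and its source was not tested: a UMI of Ttr, a visceral endoderm gene, was present in 72.0% of epiblast-like nuclei (median 10714 UMIs) and 98.3% of visceral endoderm-like nuclei (median 12700 UMIs).

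The cell cycle is driven by cyclin-dependent kinases. D-type cyclins with Cdk4 or Cdk6, and then E-type cyclins with Cdk2, inactivate retinoblastoma proteins and free E2F factors, which activate genes of DNA replication. Later, A- and B-type cyclins with Cdk1 drive mitosis, and their genes are held silent in resting cells by the DREAM complex, which binds a promoter element called CHR, while NF-Y binds CCAAT boxes in many of the same promoters. The gastrulating epiblast is known for very rapid cell cycles, and trophoblast giant cells replicate their DNA without dividing.

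Upstream sequence was taken from RefSeq promoters of build GRCm38.p6, which held 42 of the 51 genes, and 250 bases before each start were searched on both strands. The 9 genes not matched were Mcm4, Gins2, Rfc2, Ccne2, Ccna2, Aurkb, Tpx2, Ccnd1 and Ccnd2. The motifs were E2F-type sites (TTTCCCGC, TTTCGCGC, TTTGCCGC or TTTGGCGC), the CHR (TTTGAA or TTCGAA) and the CCAAT box (CCAAT). The motif sets share no word, and E2F-type words can overlap each other. An E2F-type word stood upstream of 5 of 19 S-phase genes (26.3%), 1 of 20 mitotic genes (5%) and 2.16% of all 27025 genes of the table. A CHR stood upstream of 8 of 20 mitotic genes (40%), 4 of 19 S-phase genes (21.1%) and 19.6% of all genes. A CCAAT box stood upstream of 17 mitotic genes (85%), 13 S-phase genes (68.4%) and 37.5% of all genes. CHR and CCAAT box occurred together in 40% of the mitotic genes, 15.8% of the S-phase genes and 7.93% of all genes. A match is a description of letters and not a measured binding site.

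The 150 bases before the start of 4 mitotic genes are shown as examples: Cdk1 and Top2a held the most words among the mitotic genes, and the RNA of Cdc20 and Ccnb2 was higher in extraembryonic ectoderm-like nuclei. Capitals mark any of the searched words, and each sequence runs 5′ to 3′ on the gene's strand up to the base before its start. The positions are Cdk1 chr10:69352913-69353062 (minus strand), Top2a chr11:99024190-99024339 (minus strand), Cdc20 chr4:118437344-118437493 (minus strand) and Ccnb2 chr9:70421555-70421704 (minus strand).
Cdk1: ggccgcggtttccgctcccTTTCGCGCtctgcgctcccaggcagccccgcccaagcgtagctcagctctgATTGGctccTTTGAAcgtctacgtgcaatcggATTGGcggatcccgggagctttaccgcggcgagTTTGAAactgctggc
Top2a: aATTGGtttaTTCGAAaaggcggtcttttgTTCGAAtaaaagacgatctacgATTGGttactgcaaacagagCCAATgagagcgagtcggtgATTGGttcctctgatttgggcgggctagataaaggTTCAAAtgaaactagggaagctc
Cdc20: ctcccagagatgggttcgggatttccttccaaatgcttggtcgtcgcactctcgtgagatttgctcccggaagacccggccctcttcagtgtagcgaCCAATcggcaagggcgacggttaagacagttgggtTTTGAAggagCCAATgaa
Ccnb2: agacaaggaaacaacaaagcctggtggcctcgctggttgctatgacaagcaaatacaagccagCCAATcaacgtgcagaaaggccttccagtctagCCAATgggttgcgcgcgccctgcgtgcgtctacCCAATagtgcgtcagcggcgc
Cdk1, the mitotic kinase, was the mitotic gene with an E2F-type word, and it also held 2 CHR words and 2 CCAAT boxes in this stretch. Top2a, the enzyme that untangles replicated DNA, held 3 CHR words and 4 CCAAT boxes. Cdc20, an activator of the anaphase-promoting complex, held 1 CHR word and 2 CCAAT boxes. Ccnb2, a B-type cyclin, held 3 CCAAT boxes here and a CHR farther upstream.

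Upstream stretches of 2 S-phase genes are shown for their E2F-type words, Mcm6 of the replicative helicase and Cdc6, which loads that helicase onto origins. The positions are Mcm6 chr1:128359706-128359855 (minus strand) and Cdc6 chr11:98908001-98908150 (plus strand).
Mcm6: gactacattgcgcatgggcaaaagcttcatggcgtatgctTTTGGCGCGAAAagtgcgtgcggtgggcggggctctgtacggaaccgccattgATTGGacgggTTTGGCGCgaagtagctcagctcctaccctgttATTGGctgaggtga
Cdc6: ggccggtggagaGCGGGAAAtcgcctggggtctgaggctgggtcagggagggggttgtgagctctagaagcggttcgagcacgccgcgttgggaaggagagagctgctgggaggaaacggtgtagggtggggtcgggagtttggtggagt
Mcm6 held 3 E2F-type words, of which 2 overlapped, and 2 CCAAT boxes. Cdc6 held 1 E2F-type word and neither of the other motifs. The other S-phase genes with an E2F-type word within 250 bases were Mcm5, Mcm7 and Pola1.

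Summed over the list, S-phase RNA was lowest in the visceral and parietal endoderm-like classes. Epiblast-like nuclei held 3888 CPM and visceral endoderm-like nuclei 2377, a ratio of 0.611 (0.605 to 0.618). Parietal endoderm-like nuclei held 2547 (ratio 0.655, 0.636 to 0.675), and the anterior streak, node and definitive endoderm-like class held 3371 (ratio 0.867). Of the other classes, ectoplacental cone and giant cell-like nuclei had the lowest value, 3498, and extraembryonic ectoderm-like nuclei the highest, 4154. Mitotic RNA differed less. It came to 4072 CPM in epiblast-like, 3437 in visceral endoderm-like, 3474 in parietal endoderm-like, 4508 in extraembryonic mesoderm-like and 4906 in extraembryonic ectoderm-like nuclei, and the remaining classes lay between 4143 and 4398. Among the named classes, the visceral and parietal endoderm-like ones thus had the lowest values of both lists, with the larger drop in the S-phase list. An unnamed cluster of 497 nuclei, led by Sfrp5, held 2746 S-phase CPM, which was also low. Its mitotic RNA, at 4091 CPM, was close to that of epiblast-like nuclei. Extraembryonic ectoderm-like nuclei had the highest value of both among the named classes. An unnamed cluster of 170 nuclei, with a median of 6445 UMIs, held 4292 S-phase and 5168 mitotic CPM. The S-phase ratio of extraembryonic ectoderm-like nuclei was 1.07, but 1.01 in RNA-defined classes, and that of primitive streak-like nuclei was 1.01. In visceral endoderm-like nuclei the median log2 ratio of the mitotic genes, -0.15, was near the -0.12 of all genes tested. Mean mitotic UMIs per nucleus there were 48.3, against 49.2 in epiblast-like nuclei.

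**Figure D1:**
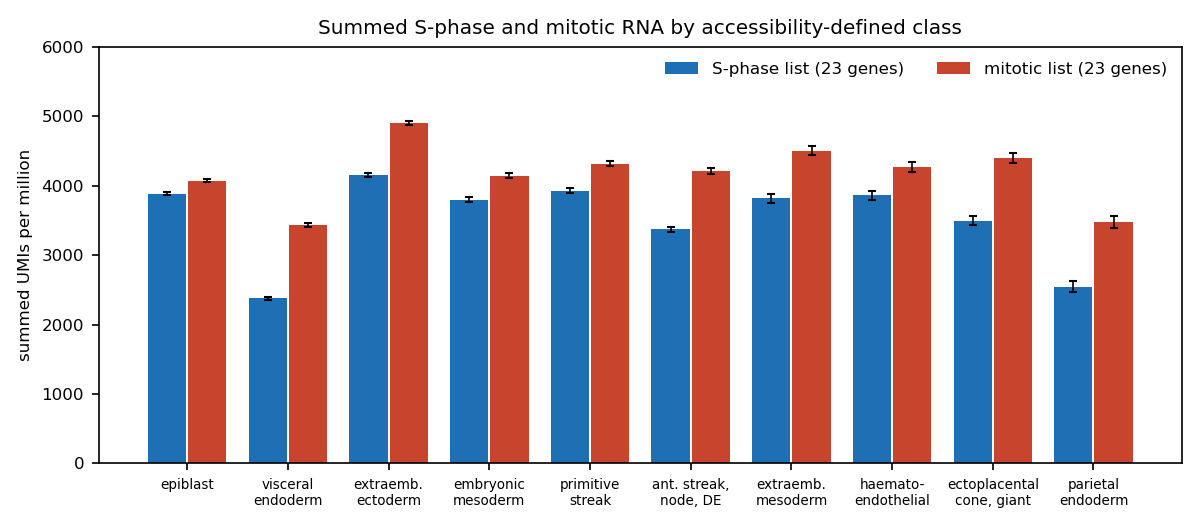
Summed RNA of the S-phase list (blue) and mitotic list (red), in CPM, in the 10 accessibility-defined classes; error bars are exact 95% counting intervals. S-phase RNA lies between 2377 and 2547 in the visceral and parietal endoderm-like classes and at 3371 or more in the other classes shown.

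In visceral endoderm-like nuclei all 6 subunits of the Mcm2-7 helicase were lower than in epiblast-like nuclei. Mcm3 fell from 229 to 108 CPM (ratio 0.473, 0.450 to 0.496), Mcm5 from 186 to 95.4 (0.514) and Mcm6, nearest to 1 of the helicase genes, from 197 to 128 (0.650). Rrm2, the small subunit of ribonucleotide reductase that supplies deoxynucleotides, fell from 184 to 86.5 (0.469, 0.444 to 0.495). Ccne1, the E-type cyclin that starts S phase, fell from 141 to 73.4 (0.520), while Ccne2 measured 77.7 and 65.4 (0.842), short of the limit. The polymerase clamp Pcna fell from 330 to 219 (0.664), DNA polymerase alpha Pola1 from 572 to 303 (0.530), the licensing factor Cdt1 from 172 to 107 (0.625), the chromatin assembly subunit Chaf1b from 67.2 to 33.9 (0.504) and the checkpoint mediator Clspn from 113 to 59.5 (0.528). All 23 S-phase ratios were below 1, and the intervals of 20 lay wholly below it. The other 3, Tyms, Gins2 and Prim1, moved above 1 when libraries were scaled by the median of gene ratios instead of by total UMIs. The share of all genes below 1 was not counted, and their median log2 ratio was -0.12.

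The mitotic genes of visceral endoderm-like nuclei went in both directions. Ect2, which acts in cytokinesis, fell from 393 to 179 CPM (0.456, 0.439 to 0.474), the checkpoint kinase Bub1 from 163 to 98.5 (0.605) and the kinetochore protein Cenpf from 421 to 265 (0.629). Top2a measured 633 and 446 (0.704). Ect2 overlaps 1700125G22Rik. Mki67, the coat protein of mitotic chromosomes, measured 257 and 289 (1.12, 1.08 to 1.16), Ccna2, the A-type cyclin, 67.2 and 81.4 (1.21, 1.13 to 1.29), and Anln, the contractile ring scaffold, 127 and 167 (1.31, 1.25 to 1.37). Ccnb1 measured 165 and 159 (0.962), Ccnb2 59.6 and 53.9 (0.904), and Cdk1 178 and 157 (0.882); with median-of-ratios scaling, Ccnb1, Tpx2 and Ttk moved above 1. Intervals lay above 1 for 7 and below 1 for 13 of the 23 mitotic genes, and the same shares over all genes were not counted.

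Counted by the 1.5-fold limit, 18 of the 51 genes were lower in visceral endoderm-like nuclei, where 31% of all 14374 genes tested were lower, and 0 were higher, where 22.2% of all genes were higher. The 18 comprised 13 S-phase genes, 3 mitotic genes and 2 D-type cyclins. The median log2 ratio was -0.62 over the S-phase genes, -0.15 over the mitotic genes and -0.12 over all genes tested. The genes next to the limit were Pcna at 0.664 inside it and Cdc6 at 0.672 and Slbp at 0.672 outside it, and at a 2-fold limit 5 genes remained lower (Ccnd1, Ccnd2, Ect2, Rrm2 and Mcm3). Median-of-ratios scaling shifted all log2 ratios of this comparison by 0.12.

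Extraembryonic ectoderm-like nuclei, the trophoblast progenitors beside the epiblast, held more RNA of many mitotic genes. Anln rose from 127 to 233 CPM (1.83, 1.75 to 1.91), Cdc20 from 147 to 254 (1.73, 1.65 to 1.80), the mitotic kinase Plk1 from 76.1 to 127 (1.67, 1.58 to 1.78), Ccna2 from 67.2 to 110 (1.64), Ccnb2 from 59.6 to 95.5 (1.60), the midbody motor Kif23 from 115 to 179 (1.56) and Cdk1 from 178 to 271 (1.52). Mki67 at 257 and 382 (1.49) and Ccnb1 at 165 and 233 (1.41) fell short of the limit. Top2a differed little, at 633 and 701 (1.11). Nusap1, a spindle microtubule protein, was the lower mitotic gene past the limit, at 74.8 and 48.4 (0.647). Several of these genes overlap another gene, so reads may be shared: Nusap1 with Oip5, Cdc20 with Elovl1, Ccna2 with Exosc9 and Anln with 9530077C05Rik.

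The S-phase genes of extraembryonic ectoderm-like nuclei split by gene. Rrm2 rose from 184 to 332 CPM (1.80, 1.73 to 1.87), Cdc45, a helicase cofactor, from 37.9 to 61.4 (1.62) and Mcm4 from 180 to 284 (1.58). Below 1 but short of the limit were Pola1 at 572 and 383 (0.669), Slbp, the histone mRNA binding protein, at 280 and 214 (0.763) and Clspn at 113 and 86.7 (0.771). The E-type cyclins lay on opposite sides of 1, also short of the limit, with Ccne1 at 141 and 170 (1.20, 1.15 to 1.26) and Ccne2 at 77.7 and 61.7 (0.794, 0.738 to 0.854). Pcna (0.989) and Ttk (0.990) were the members that crossed 1 under median-of-ratios scaling. In all, 11 of the 51 genes were higher against 19.2% of all genes tested, and 4 were lower against 29.4%; Ccnd3 was the 1 higher gene, and Ccnd1 and Ccnd2 the 2 lower genes, at a 2-fold limit. The median log2 ratio was 0.24 over the S-phase genes and 0.32 over the mitotic genes, against -0.07 over all genes.

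Embryonic mesoderm-like nuclei were close to epiblast-like nuclei for both lists, with a ratio of 0.978 (0.967 to 0.988) for S-phase and 1.02 (1.01 to 1.03) for mitotic RNA. The mitotic ratio fell to 0.993 when UMIs per nucleus were compared without scaling. Chaf1b was lower, at 67.2 and 37.9 CPM (0.565, 0.511 to 0.624). Ccnd2 was higher and is described below. These were 1 gene lower, where 18% of all genes were lower, and 1 gene higher, where 12.3% were higher. Chaf1b was also low in extraembryonic mesoderm-like nuclei, at 32.8, and in haemato-endothelial progenitor-like nuclei, at 35.1.

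Across all 10 classes, single genes departed from their list. Kif11, the motor that separates spindle poles, varied least, by 1.25-fold between its lowest and highest class. Kif23 was highest in parietal endoderm-like nuclei, at 263 CPM against 115 in epiblast-like nuclei (2.28, 2.07 to 2.52), although summed mitotic RNA was low there. Anln was highest in ectoplacental cone and giant cell-like nuclei, at 294 (2.30). Ccne1 was lowest in parietal endoderm-like nuclei, at 46.4 (0.329, 0.261 to 0.409). Rrm2 spanned 4.34-fold, from 76.4 in parietal endoderm-like to 332 in extraembryonic ectoderm-like nuclei.

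**Figure D2:**
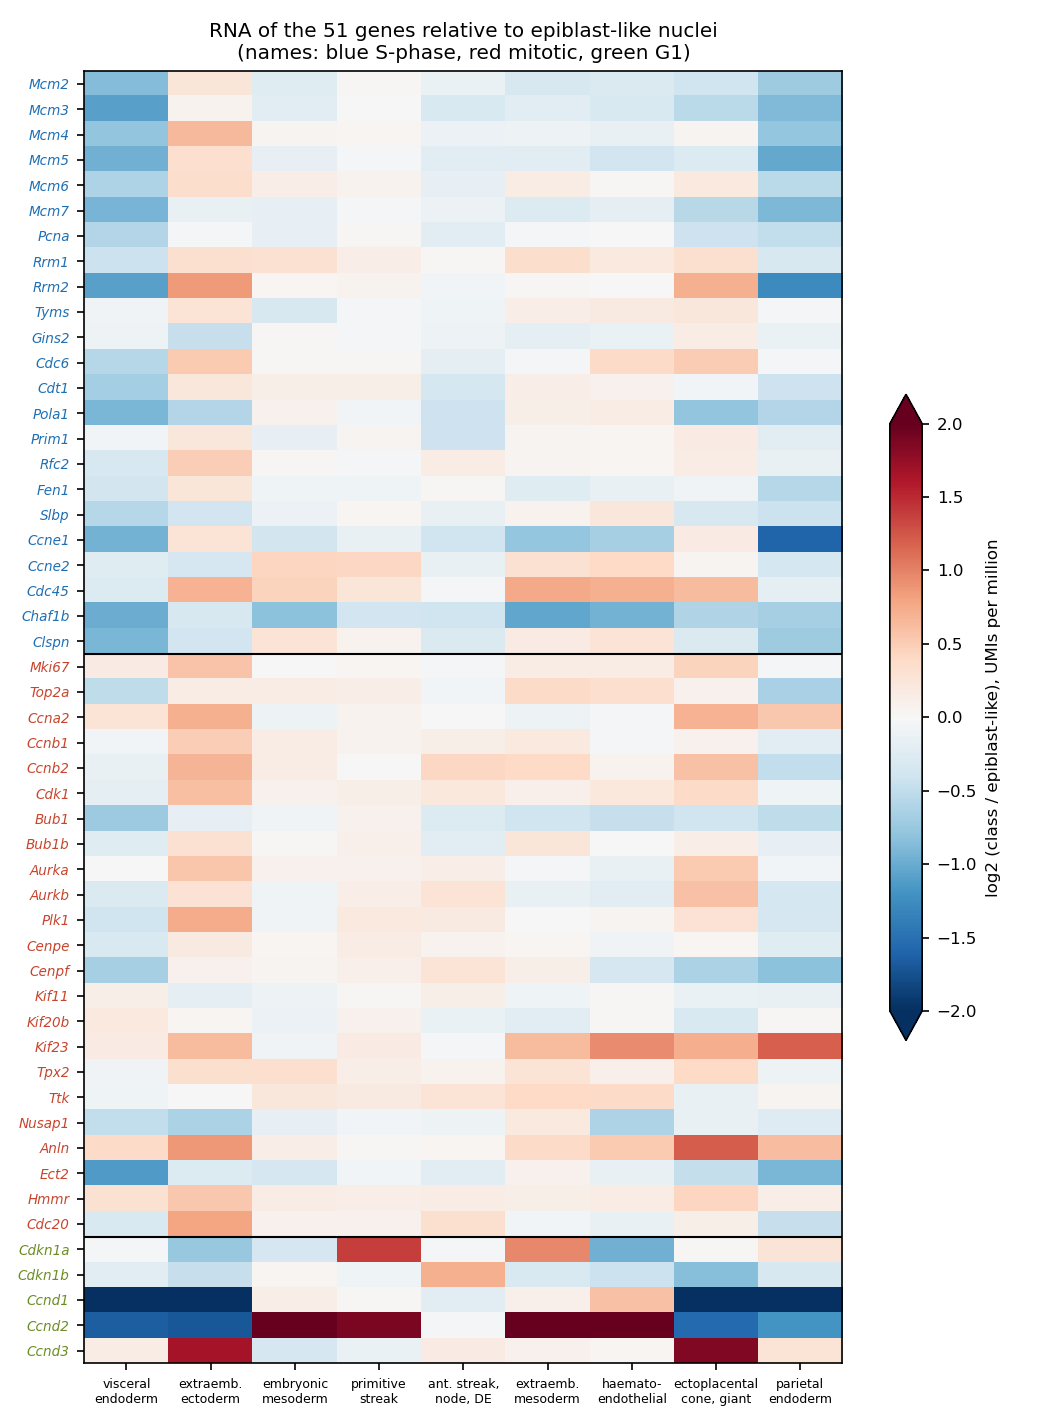
Log2 ratio of CPM to epiblast-like nuclei for each of the 51 genes (vertical axis) in the other 9 accessibility-defined classes (horizontal axis), with colours limited to -2 to 2. The S-phase block is blue (lower) in the visceral and parietal endoderm-like columns, and the D-type cyclins at the bottom show the strongest colours.

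Of the D-type cyclins, which link outside signals to G1 progress, Ccnd1 and Ccnd2 differed more between classes than any S-phase or mitotic gene. Highest over lowest class was 29.5 for Ccnd2, 13.6 for Ccnd1 and 4.58 for Ccnd3. The value for Ccnd3 was close to the 4.34 of Rrm2, the largest among the S-phase and mitotic genes. Ccnd1 measured 102 CPM in epiblast-like, 104 in primitive streak-like, 113 in embryonic mesoderm-like, 110 in extraembryonic mesoderm-like, 87.2 in anterior streak, node and definitive endoderm-like and 154 in haemato-endothelial progenitor-like nuclei. It measured 13.2 in visceral endoderm-like (0.128, 0.113 to 0.146), 20.7 in extraembryonic ectoderm-like (0.202, 0.180 to 0.225), 19.4 in ectoplacental cone and giant cell-like and 11.3 in parietal endoderm-like nuclei. Among the named classes, the 4 extraembryonic endoderm-like and trophoblast-like ones were therefore low and the 6 others high, with no overlap. How many of all genes part the same classes in this way was not counted. The unnamed clusters led by Sfrp5 and by Rmrp had Ccnd1 values between the low and the high classes. The gap thus held for the named classes only.

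Ccnd2 was high in the streak and mesoderm. It measured 54.2 CPM in epiblast-like, 52.6 in anterior streak, node and definitive endoderm-like, 201 in primitive streak-like, 272 in embryonic mesoderm-like (5.02, 4.73 to 5.33), 311 in haemato-endothelial progenitor-like and 493 in extraembryonic mesoderm-like nuclei (9.10, 8.50 to 9.74). The extraembryonic endoderm-like and trophoblast-like classes lay between 16.7 and 23.8. A Ccnd2 UMI was found in 82.7% of embryonic mesoderm-like nuclei (median 10996 UMIs) and 17.2% of extraembryonic ectoderm-like nuclei (median 12767 UMIs), the class with the lowest level.

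Ccnd3 had another pattern, with its high values in trophoblast-like classes. It measured 158 CPM in extraembryonic ectoderm-like (3.16, 2.96 to 3.37) and 182 in ectoplacental cone and giant cell-like nuclei (3.62, 3.27 to 4.01), against 50.2 in epiblast-like nuclei and 39.7 to 60.6 in the other 7 classes. Summed, the D-type cyclins of extraembryonic ectoderm-like nuclei came to 196 CPM against 207 in epiblast-like nuclei (0.947). The gene with the highest value was Ccnd3 in the former and Ccnd1 in the latter. Visceral endoderm-like nuclei held 86.0 in all (0.416). Ccnd1, Ccnd2 and Ccnd3 overlap LTO1, 9330179D12Rik and Bysl, in that order.

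**Figure D3:**
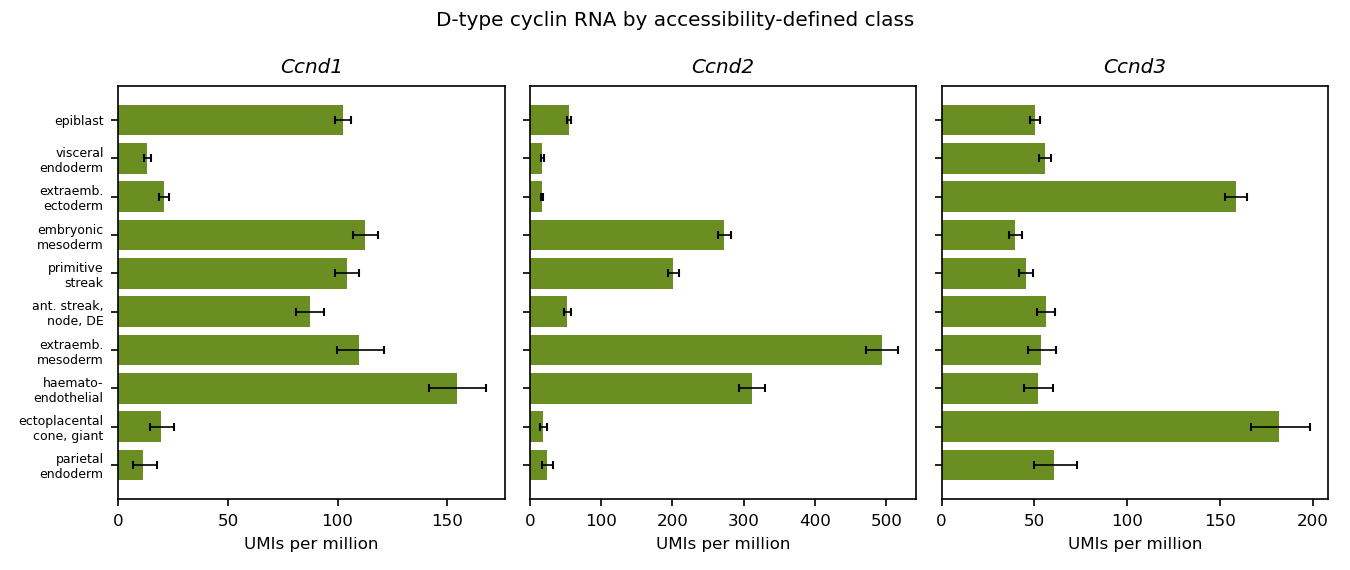
RNA of Ccnd1, Ccnd2 and Ccnd3 in CPM (horizontal axes from 0, each with its own range) in the 10 accessibility-defined classes, with exact 95% counting intervals. Ccnd1 is low in the 4 extraembryonic endoderm-like and trophoblast-like classes, Ccnd2 peaks at 493 in extraembryonic mesoderm-like nuclei, and Ccnd3 peaks at 158 and 182 in the trophoblast-like classes.

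The CDK inhibitors among the 51 genes were thinly measured. Cdkn1a, the p21 inhibitor, was highest in primitive streak-like nuclei, at 27.1 CPM against 10.4 in epiblast-like nuclei (2.61, 2.23 to 3.06), and measured 20.2 in extraembryonic mesoderm-like, 6.13 in extraembryonic ectoderm-like (0.590, 0.469 to 0.737), 8.28 in embryonic mesoderm-like and 10.1 in visceral endoderm-like nuclei. Cdkn1b, the p27 inhibitor, measured 19.8 in epiblast-like, 17.1 in visceral endoderm-like, 14.4 in extraembryonic ectoderm-like and 20.3 in embryonic mesoderm-like nuclei, and was highest at 32.6 in the anterior streak, node and definitive endoderm-like class (1.64, 1.42 to 1.90).

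Other cell cycle genes were read from lists of 145 genes, of which 143 passed the minimum. In visceral endoderm-like nuclei 7 were higher (4.9%, against 22.2% of all genes) and 30 lower (21%, against 31%). In extraembryonic ectoderm-like nuclei 19 were higher (13.3%, against 19.2%) and 11 lower (7.69%, against 29.4%), and in embryonic mesoderm-like nuclei 2 were higher (1.4%, against 12.3%) and 4 lower (2.8%, against 18%). Each share was below that of all genes. Of 27 further replication fork and nucleotide supply genes, 11 were lower in visceral endoderm-like nuclei (40.7%, beside 31% of all genes) and 0 were higher. Of 5 other CDK inhibitors, the 4 that passed the minimum were all higher in both visceral endoderm-like and extraembryonic ectoderm-like nuclei. The minimum was summed over all kept nuclei, so a gene scarce in epiblast-like nuclei could pass through classes where it was high. The filter may therefore have favoured such genes, and the count is no separate support. Cdkn2a measured 3.60 CPM in epiblast-like, 11.4 in visceral endoderm-like (3.16) and 35.9 in extraembryonic ectoderm-like nuclei (9.97, 8.10 to 12.4). Cdkn1c, the p57 inhibitor, measured 20.5, 43.5 (2.13) and 58.6 (2.86). Cdkn2b was 12.2-fold higher in extraembryonic ectoderm-like nuclei (6.80 to 23.8), but on 95 and 13 UMIs.

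Of 19 regulators of E2F and DREAM, 7 were lower in visceral endoderm-like nuclei (36.8%, against 31% of all genes). In extraembryonic ectoderm-like nuclei 7 were also lower (36.8%, against 29.4%), and 1 was higher in each class (5.26%, against 22.2% and 19.2%). In embryonic mesoderm-like nuclei 1 was lower (5.26%, against 18%). Among them Mybl2, a factor of mitotic gene activation, measured 52.2 CPM in epiblast-like and 234 in extraembryonic ectoderm-like nuclei (4.48, 4.22 to 4.76). Tfdp2, a partner of E2F factors, was low in both extraembryonic ectoderm-like (0.328) and visceral endoderm-like nuclei (0.352), and so was the retinoblastoma gene Rb1 (0.454 and 0.324). E2f2 was lower in visceral endoderm-like (0.493), extraembryonic ectoderm-like (0.508) and embryonic mesoderm-like nuclei (0.387), and E2f5 in visceral endoderm-like nuclei (0.424). In embryonic mesoderm-like nuclei Cdk6, a partner of D-type cyclins, rose from 71.8 to 193 (2.68, 2.53 to 2.85), and the replication genes Pola2 (0.521) and Dna2 (0.601) were lower.

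In visceral endoderm-like nuclei, promoter accessibility did not mirror the RNA of most S-phase genes, nor that of the mitotic genes with lower RNA. In RNA-defined classes, peaks at the S-phase promoters held 1016 peak CPM (peak counts scaled in the same way) in 3762 epiblast-like and 1238 in 1672 visceral endoderm-like nuclei, a ratio of 1.22 (1.20 to 1.24). For the mitotic promoters the values were 818 and 1032 (1.26, 1.24 to 1.29). In 1083 extraembryonic ectoderm-like nuclei the ratios were 1.19 for S-phase and 1.20 for mitotic promoters, and in 1145 embryonic mesoderm-like nuclei 1.01 and 1.04. All promoter peaks together gave 1.06, 1.03 and 0.968 in the same classes, and the medians over 20590 promoters were 1.06, 1.02 and 0.973. Of the 23 S-phase genes, 20 had a higher promoter and lower RNA in visceral endoderm-like than in epiblast-like nuclei. So had all 15 mitotic genes whose RNA ratio was below 1. The share of all genes with both was not counted. The medians over all genes also lay above 1 for promoters and below 1 for RNA (log2 ratio -0.12). Among the 20 S-phase genes were Tyms, Gins2 and Prim1, and among the 15 mitotic genes Ccnb1, Tpx2 and Ttk. The RNA of these genes moved above 1 with median-of-ratios scaling. A higher promoter with lower RNA was found for 6 S-phase genes in extraembryonic ectoderm-like and 5 in embryonic mesoderm-like nuclei. Mcm3, for example, measured 30.7 and 39.1 at its promoter in visceral endoderm-like nuclei (1.28, 1.15 to 1.41) beside its RNA ratio of 0.473. Rrm1 (0.802), Rrm2 (0.891) and Clspn (0.951) were the 3 S-phase genes with a lower promoter value there. Mcm4, Mcm7, Pcna, Gins2, Fen1, Cdc45, Aurka, Plk1, Nusap1, Ect2 and Hmmr share a promoter peak with a neighbouring gene, such as Ap4m1 at Mcm7 or Oip5 at Nusap1, so these peaks cannot be assigned to the member alone.

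Past the 1.5-fold limit, 3 member promoters were higher in visceral endoderm-like nuclei, where 11.3% of all promoters were higher: Kif11 (1.71), Tpx2, a spindle assembly factor (1.65), and Ccne2 (1.53). In extraembryonic ectoderm-like nuclei Tpx2 was higher (1.51), where 8.14% of all promoters were, and in embryonic mesoderm-like nuclei 0 members were, where 5.66% were. The lower promoters all belonged to G1 genes. In visceral endoderm-like nuclei these were 4 members against 28.9% of all promoters, in extraembryonic ectoderm-like nuclei the same 4 against 28%, and in embryonic mesoderm-like nuclei 1 against 11.8%. The 4 were Ccnd1, Ccnd2, Ccnd3 and Cdkn1a, and the 1 was Cdkn1a, whose counted promoter peak held 3.09 peak CPM in epiblast-like nuclei. The calls at Cdkn1a and Ccnd3 depended on which start was read, as given below. When the window was widened to 2000 bp on both sides, 0 members passed in embryonic mesoderm-like nuclei, and with doublet calls kept, 4 rather than 7 passed either way in visceral endoderm-like nuclei.

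**Figure D4:**
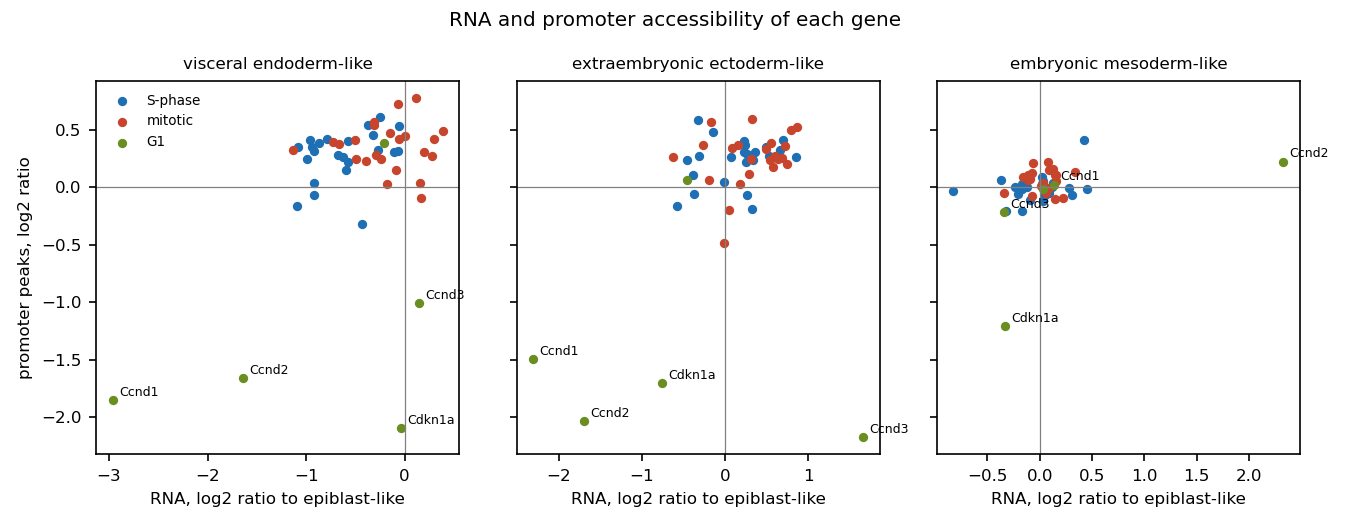
Log2 ratio to epiblast-like nuclei of promoter peak counts (vertical axis) against that of RNA (horizontal axis, its range set per panel) for each gene in 3 classes. In visceral endoderm-like nuclei most S-phase genes (blue) lie left of 0 and above 0, while Ccnd1 and Ccnd2 (green) are low on both axes.

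At the D-type cyclins both promoter and RNA of Ccnd1 and Ccnd2 were lower in visceral endoderm-like and extraembryonic ectoderm-like nuclei than in epiblast-like nuclei. The Ccnd1 promoter measured 35.7 peak CPM in epiblast-like, 9.87 in visceral endoderm-like (0.276, 0.232 to 0.327) and 12.7 in extraembryonic ectoderm-like nuclei (0.355, 0.293 to 0.427). Of 20 peaks within 50000 bp of its start, 15 were lower in visceral endoderm-like nuclei, where 49% of all 171487 peaks tested were lower, and 18 in extraembryonic ectoderm-like nuclei, where 47.3% were. The Ccnd2 promoter measured 22.3, 7.08 (0.317) and 5.44 (0.243). In embryonic mesoderm-like nuclei, where Ccnd2 RNA was 5.02-fold higher, its promoter was 1.17-fold higher (1.02 to 1.33). There 4 of 18 peaks around the gene were higher, near the 21.6% of all peaks, and 1 was lower, where 26.1% of all peaks were. The higher ones included chr6:127181090-127181978, about 30527 bp from the start, at 1.45 and 4.34 peak CPM (2.99), on 106 and 94 peak counts. The peaks around the genes were looked up after the promoter values had been seen.

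Ccnd3 showed RNA and promoter values in opposite directions in extraembryonic ectoderm-like nuclei, 3.16 for RNA and 0.221 for the promoter peaks. The files give a range of starts for this gene, and only peaks at its ends were counted, chr17:47504607-47505519 and chr17:47595422-47596348. The latter carried most of the drop, from 30.1 to 3.59 peak CPM (0.119, 0.0841 to 0.165). In visceral endoderm-like nuclei it measured 4.33 (0.144), while the former was higher, at 7.84 and 14.5 (1.85, 1.55 to 2.20). A further RefSeq start of Ccnd3 lies inside the range, in the peak chr17:47593081-47593948, which was looked up after these values had been seen. This peak measured 24.9 in epiblast-like and 36.3 in extraembryonic ectoderm-like nuclei (1.46, 1.29 to 1.65), and 29.8 in visceral endoderm-like nuclei (1.20, 1.07 to 1.34), so the direction at Ccnd3 depended on which start was read. Cdkn1a has such a start too, in the peak chr17:29093283-29094158, also looked up afterwards. It measured 28.1 in epiblast-like, 27.4 in visceral endoderm-like (0.973, 0.866 to 1.09), 29.3 in extraembryonic ectoderm-like (1.04, 0.911 to 1.19) and 23.7 in embryonic mesoderm-like nuclei (0.841, 0.733 to 0.963), so none of the lower calls at Cdkn1a held at that start. Among the 42 genes with RefSeq starts, Mcm7 was the other with an uncounted peak at a start, at 1.46 in visceral endoderm-like (1.35 to 1.57), 0.885 in extraembryonic ectoderm-like (0.793 to 0.986) and 1.16 in embryonic mesoderm-like nuclei (1.06 to 1.27).

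To compare single nuclei, each was thinned to the same total of 5000 UMIs. In the 2334 epiblast-like nuclei deep enough (77 were left out), the S-phase list gave a mean of 20.2 UMIs and the mitotic list 19.8. The 10th and 90th percentiles were 11 and 31 for S-phase and 11 and 30 for mitotic UMIs. Variance divided by the mean was 2.90 for the S-phase and 2.64 for the mitotic list, where counting alone gives a value near 1. The plotted sums formed a single broad hump in each class. In extraembryonic ectoderm-like nuclei the medians were 21 S-phase and 23 mitotic UMIs, and in visceral endoderm-like nuclei 12 and 15.

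**Figure D5:**
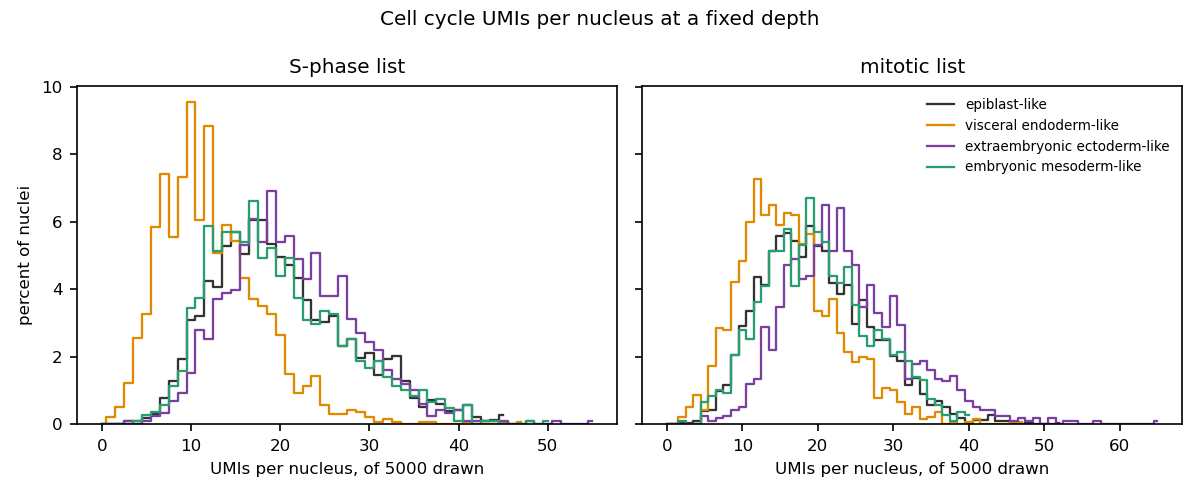
Percent of nuclei (vertical axis) by S-phase list UMIs (left) and mitotic list UMIs (right) per nucleus after thinning to 5000 UMIs, in 4 classes. Each curve has a broad hump; the visceral endoderm-like curve lies left of the others, with medians of 12 S-phase and 15 mitotic UMIs.

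A limit of at least 30 mitotic UMIs was set near the 90th percentile of epiblast-like nuclei, so their share of 10.4% follows from that choice. The limit was reached by 3.56% of visceral endoderm-like (2.66% to 4.67%), 11.1% of embryonic mesoderm-like and 21.9% of extraembryonic ectoderm-like nuclei (19.6% to 24.4%). These are exact binomial intervals that treat nuclei as independent and do not cover differences between embryos or libraries. Before thinning the shares, in the same order of classes, were 69.3%, 65.7%, 72.3% and 87.0%. This is a range of a sum and not a cell state, and 234 epiblast-like nuclei lay within 2 UMIs of the limit. Mki67 and Top2a did not separate nuclei by presence: a Mki67 UMI was found in 88.4% of epiblast-like and 95.2% of extraembryonic ectoderm-like nuclei, and a Top2a UMI in 96.9% and 98.0%. A gene foreign to epiblast, Elf5, had a UMI in 9.79% of epiblast-like nuclei against 83.4% of extraembryonic ectoderm-like nuclei.

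S-phase and mitotic RNA ran against each other across nuclei. The correlation of the sums was -0.39 in epiblast-like nuclei and ranged from -0.17 in extraembryonic ectoderm-like to -0.46 in anterior streak, node and definitive endoderm-like nuclei. All nuclei came from the same library. Other measures moved along with the sums: epiblast-like nuclei with many mitotic UMIs had higher medians of UMIs before thinning and of peak counts than those with few, as given below, and 1.65 times the level of Malat1, a long RNA kept in the nucleus. In a comparison chosen after the data had been seen, nuclei with at least 31 S-phase UMIs had 0.354 times the Malat1 level of those with 19 or fewer, and medians of 9030 against 11670 UMIs and 17818 against 25140 peak counts. The part of these in the correlation was not tested. Between single genes the correlations were weak, with a mean Pearson r of 0.057 over 253 pairs of S-phase genes, 0.041 over 253 mitotic pairs and -0.030 over 529 mixed pairs. The highest was 0.17, between Slbp and Clspn. In sparse counts such values describe the data and carry no finding for a pair.

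Members differed in how closely they followed their list, whose sum was taken without the gene's own UMIs and on the log2 scale with 1 added. Top2a (0.26), Cenpf (0.23) and the kinetochore motor Cenpe (0.22) had the highest r with the mitotic sum. Ccnb1 (0.16), Mki67 (0.14) and Cdk1 (0.13) came lower, and Cdc20 (0.016) and Ccna2 (0.00058) lowest of the mitotic genes. Slbp (0.28), Rrm2 (0.24) and Cdc6 (0.24) led the S-phase genes. Pola1 was the S-phase gene with the lowest r with its own sum (0.025) and the most negative with the mitotic sum (-0.23).

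Epiblast-like nuclei with at least 30 mitotic UMIs (242 nuclei) were set against those at or below the median of 19 (1227 nuclei). Mitotic RNA chose these nuclei and is not a finding. S-phase RNA was 3177 against 4546 CPM (0.699, 0.676 to 0.723), with all 23 S-phase ratios below 1 and 19 intervals wholly below 1. The share of all genes below 1 in this comparison was not counted. Ccne2 was lowest, at 39.7 and 107 (0.371, 0.271 to 0.498), then Cdc6 at 43.8 and 88.7 (0.494), Clspn at 76.0 and 140 (0.544), Slbp at 202 and 355 (0.571) and Pola1 at 406 and 693 (0.586). The D-type cyclins did not differ beyond counting error: Ccnd1 gave 1.09 (0.898 to 1.32), Ccnd2 0.893 (0.660 to 1.19) and Ccnd3 1.04 (0.784 to 1.36).

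Promoter accessibility was read in the same nuclei. Mitotic promoters gave 871 and 781 peak CPM (1.11, 1.07 to 1.16), S-phase promoters 1024 and 1002 (1.02, 0.985 to 1.06), G1 promoters 1.12 (1.02 to 1.23, beside an RNA ratio of 0.979, 0.858 to 1.11), and all promoters together 1.05. Within the G1 list the Ccnd1 promoter gave 47.7 and 33.0 (1.45, 1.20 to 1.73), although its RNA interval held 1. The promoter intervals of the other G1 genes all held 1. Cdkn1b gave 1.11 (0.941 to 1.32), Ccnd2 1.04 (0.800 to 1.34), Ccnd3 0.913 (0.744 to 1.11) and Cdkn1a 0.727 (0.315 to 1.49). The G1 list ratio thus rested largely on Ccnd1. Nuclei with many mitotic UMIs also held more material, with medians of 12447 against 10051 UMIs and 26230 against 20917 peak counts, and the part of depth in these ratios was not tested.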

How the data were processed

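Nuclear RNA and chromatin accessibility were measured in the same nuclei of pooled embryos. The deposited values are raw counts, UMIs per gene and counts per peak, made by the authors with Cell Ranger ARC 2.0.0 on build mm10, per the submitters' processing notes; for peak calling, barcode filters, introns and strand, settings are not given in the sources used here. Start coordinates came from the files, and gene strand from RefSeq.

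A nucleus needed 1000 UMIs, 500 genes, 1000 peak counts and no more than 20% of its UMIs from mitochondrial genes. Scrublet in scanpy 1.11.5 called 1154 barcodes (7.52%) as doublets, which were removed. RNA (2000 variable genes, cell cycle genes left out) and peaks (TF-IDF) were clustered apart with leidenalg 0.10.2 on 30 components at resolution 1. For peaks the first of the 30 components was left out. Clusters were named from marker lists. Of 8470 nuclei named in both assays, 86.45% had the same name.

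Levels are CPM, sums of counts scaled to group totals, and ratios carry exact Poisson-conditional intervals; for peaks, whose nonzero values were 86.4% even, intervals used the count divided by 2 and rounded up as fragments. Genes and promoters needed 200 counts over the kept nuclei. Promoter peaks were those touching the 1000 bp before or 100 bp after the lowest or highest start, or 1000 bp on both sides for Ccnd2, whose strand was undecided. Ratios and intervals were tested on simulated Poisson counts, the model that the intervals assume. That test does not cover the wider spread among nuclei. With 1 library per assay no test between groups was run.

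Genes given in full are those past 1.5-fold in each of 3 comparisons with the largest ratios, up to 5 each way, with the cyclins, Cdk1, Mki67, Top2a and the CDK inhibitors always; of other cell cycle genes, up to 3 each way; of genes outside the lists, the 10 best correlated with the mitotic sum, of which 1 is not reported here. Further genes are named as examples, chosen after their values were seen. The members and lists were chosen with earlier results of these data known.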

Additional observations from a re-analysis of the deposited data

How the results depend on the processing

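Of 153 values recomputed under other settings, 106 stayed the same (within counting error for a ratio, within 1.5 times for a count, and within 10% for a mean r or a variance over mean), 46 moved and 1 changed direction; the cause was not tested. The mitotic ratio of embryonic mesoderm-like over epiblast-like nuclei turned to 0.993 as UMIs per nucleus without scaling, and was 1.03 with 2000 UMIs and 2000 peak counts asked for and 1.001 without Top2a, the mitotic gene with most UMIs. For visceral endoderm-like nuclei the S-phase ratio was 0.646 with doublets kept, 0.593 in deeper nuclei, 0.652 at resolution 0.5, 0.596 in RNA classes, 0.663 with median-of-ratios scaling, 0.711 per nucleus and 0.625 without Pola1. Their mitotic ratio was 0.892 with doublets kept, 0.913 at resolution 0.5, 0.832 in RNA classes, 0.915 with median-of-ratios scaling, 0.982 per nucleus and 0.870 without Top2a. The visceral endoderm-like class did not hold the same nuclei throughout. At resolution 0.5 it was a cluster of 817 nuclei led by 6330411D24Rik and Sfrp5, while 1239 nuclei led by Mamld1 and Bmp6 stayed unnamed. With doublets kept it joined 1002 nuclei led by Sfrp5 and 992 led by Aass. In the main setting an Sfrp5-led cluster of 497 nuclei stayed unnamed. For extraembryonic ectoderm-like nuclei the S-phase ratio was 1.03 with doublets kept, 1.02 in deeper nuclei, 1.01 in RNA classes, 1.12 with median-of-ratios scaling, 1.25 per nucleus and 1.14 without Pola1. Their mitotic ratio was 1.19 with doublets kept, 1.22 in deeper nuclei, 1.17 at resolution 0.5, 1.26 with median-of-ratios scaling, 1.41 per nucleus and 1.22 without Top2a. For embryonic mesoderm-like nuclei the S-phase ratio was 0.959 with doublets kept, 0.939 in deeper nuclei, 0.954 per nucleus and 0.963 without Pola1.

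Promoter ratios moved to 1.23 (S-phase, extraembryonic ectoderm-like, accessibility classes), 1.25 (mitotic, extraembryonic ectoderm-like, wider window), 1.15 (S-phase) and 1.19 (mitotic, both visceral endoderm-like, doublets kept). Member promoters past the limit numbered 0 in embryonic mesoderm-like nuclei with the wider window, and 4 in visceral endoderm-like nuclei with doublets kept and also at 2-fold. At 2-fold, RNA counts were 5 lower in visceral endoderm-like, 1 higher and 2 lower in extraembryonic ectoderm-like and 0 lower in embryonic mesoderm-like nuclei. Thinning to 3000 UMIs gave a variance over mean of 2.14 for S-phase and 2.03 for mitotic UMIs and a mean r of 0.038 and 0.028. Members with few counts, such as Cdkn1a, are limited by depth. The assays were paired by nucleus, but no analysis across replicates was possible because each assay has 1 library.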

Other observations

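Outside the cell cycle lists, the gene most closely related to mitotic RNA across the 2334 thinned epiblast-like nuclei was Malat1, a long RNA kept in the nucleus. Its Pearson r was 0.41 with the mitotic sum and -0.51 with the S-phase sum, against a median of -0.004 and a 99th percentile of 0.13 over 7996 genes for the mitotic sum. Other genes named by the same rule were Nucks1 (0.22), Cdca2 (0.21) and the helicase Pif1 (0.20), together with Gpc6 (0.21), Meg3 (0.21), Ptprg (0.20), Tenm4 (0.19) and Auts2 (0.19). Of these, Gpc6 (-0.39), Ptprg (-0.37) and Meg3 (-0.36) were also strongly negative with the S-phase sum. Of the 30 highest genes for the mitotic sum, 8 were mitotic members, 5 came from the other cell cycle lists, among them Kif18a (0.29) and Prc1 (0.27), and 17 came from outside.

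Epiblast-like nuclei with at least 31 S-phase UMIs (265 nuclei) were also set against those at or below 19 (1230 nuclei), the comparison chosen after the data had been seen. Mitotic RNA was 2949 against 4440 CPM (0.664, 0.642 to 0.687), with Kif11 lowest at 95.8 and 249 (0.385). Cdc20 went the other way, at 180 and 136 (1.32, 1.14 to 1.53). Malat1 measured 3308 and 9348 CPM (0.354, 0.343 to 0.365), while its promoter gave 1.05 (0.875 to 1.24). The nuclei with many S-phase UMIs had medians of 9030 UMIs and 17818 peak counts, against 11670 and 25140, and all promoters together held 0.929 of the level, beside 0.927 for S-phase and 0.878 for mitotic promoters. The part of depth in these values was not tested.

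The epiblast-like class joined 2 clusters that differed in balance. The cluster of 1354 nuclei held 3768 S-phase and 4250 mitotic CPM, and that of 1057 nuclei held 4079 and 3789. Their D-type cyclin RNA was close, at 207 and 206. The clusters also differed in depth, with medians of 11392 and 10173 UMIs and 24365 and 21790 peak counts, and the part of depth in the balance was not tested.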
